A study of Papio anubis with 8 samples.

Results

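The receptors for serotonin, dopamine, noradrenaline and adrenaline, acetylcholine and histamine were described in the hippocampus of the fetal olive baboon (Papio anubis). They were taken as every row of the deposited gene table whose symbol starts or reads as HTR with a number, DRD, ADRA, ADRB, CHRM, CHRN or HRH, which gave 54 of 37053 genes. These are 16 serotonin, 5 dopamine, 6 alpha-adrenergic, 3 beta-adrenergic, 5 muscarinic, 15 nicotinic and 4 histamine receptor genes. The rule reads gene symbols only, but it was chosen with earlier results of these data known.

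RNA was taken from the fetal hippocampus at 0.9 of gestation and sequenced in 8 libraries, named AMB3 to AMB10. The study was about mothers that differed in adiposity and in leptin, a hormone of fat tissue. The labels give no maternal group, sex, genotype or treatment for any library, nor whether the libraries stem from separate fetuses. No group of libraries was therefore compared with another, no p-value was computed, and the values below are given for each library. The libraries held between 40404878 (AMB9) and 71648654 (AMB10) counts. Levels are counts per 1000000 counts of the library (CPM), after the library sizes were corrected by the TMM method. By log2 range is meant how far, in log2 CPM, the highest library of a gene lay above its lowest.

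Serotonin fibres from the raphe nuclei, noradrenaline fibres from the locus coeruleus, dopamine fibres from the midbrain, histamine fibres from the hypothalamus and acetylcholine fibres from the septum all reach the hippocampus, where their transmitters set the excitability of neurons and the ease of synaptic change. Most of their receptors signal through G proteins: one class raises cyclic AMP through Gs, another lowers it through Gi, and yet another releases calcium through Gq and phospholipase C. The nicotinic receptors and the serotonin receptors of the HTR3 class are instead ion channels built from 5 subunits. In bulk tissue, fewer cells of a type and less RNA in each cell cannot be told apart.

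Of the 54 genes, 42 had enough counts in all libraries to pass the filter (about 10 counts at the median library size), and 12 did not. The 42 genes spread widely among the libraries: their median log2 range was 1.79, against 0.77 for the 16874 genes of the whole table that passed. A range of at least 1 was found in 31 of the 42, against 36.1% of all genes, and a range of at least 2 in 17 of the 42, against 9%. Without AMB7 there were 11 genes with a range of at least 2, and 11 likewise without AMB8 and AMB10. Fewer libraries can only narrow a range, and the shares of all genes without these libraries are not given here. The receptor genes had fewer reads than most genes, with a median of 440 counts per library against 1082, and a low count widens a range. The limits of counting error were therefore taken into the range as well. Measured from the lower 95% Poisson bound of the highest library to the upper bound of the lowest, 27 of the 42 still spanned at least 1 on the log2 scale, against 20.4% of all genes. The intervals of the highest and the lowest library overlapped in CHRNB1 only. The share of all genes with such intervals apart is not given here, so this does not set the receptor genes apart. Poisson intervals cover counting error only, and they treat the estimated counts, many of them fractional before rounding, as counts of independent reads.

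**Figure D1:**
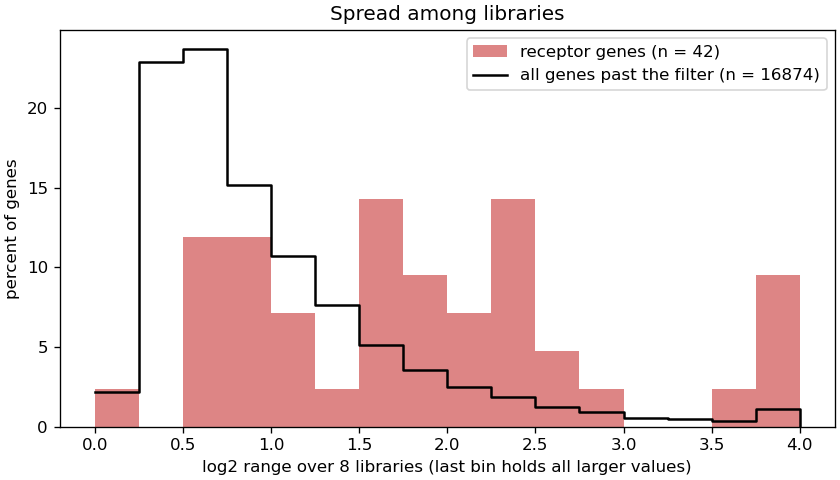
Distribution of the log2 range over 8 libraries for 42 receptor genes (red bars) and for all 16874 genes that passed the filter (black line), as percent of genes in bins of 0.25, with all larger values in the last bin. The receptor genes lie further to the right as a group, with a median of 1.79 against 0.77, though some other genes had wider ranges than any of them.

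AMB8 and AMB10 were the most frequent pair at either end. They were the 2 highest libraries for 10 of the 42 genes, against 12% of all genes, and the 2 lowest for 8, against 11.6%. The 10 genes were HTR1A, HTR1E, HTR4, HTR7, DRD1, ADRA1D, ADRA2C, CHRNA1, CHRNA7 and CHRNB2, and the 8 were HTR1D, HTR2A, CHRM2, CHRNA2, CHRNA5, CHRNB1, CHRNE and HRH2. The order of CHRNB1 lay within counting error. AMB3, AMB8 and AMB10, in any order, were the 3 highest in 7 genes (9.73% of all genes) and the 3 lowest in 5 (9.83%). In HTR2C, HTR3A and CHRNB4, which are not among the 10, AMB3 was one of the 2 highest. AMB8 held the lowest value of 12 genes, against 12.3% of all genes, and AMB7 that of 11, against 15%. The same pair was also the most frequent one among all genes of the table.

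The labelled tissue was checked against its markers, and AMB8 and AMB10 stood apart in them too. PROX1, which specifies granule cells of the dentate gyrus, was present in all libraries, with 96.6 CPM in AMB8, 81.7 in AMB10, 49.0 in AMB3, 33.6 in AMB9, 21.4 in AMB7, 20.4 in AMB6, 19.2 in AMB4 and 14.4 in AMB5. The 8 dentate markers, of which 7 passed the filter, summed to 702 CPM in AMB8, 741 in AMB10, 489 for AMB3 and 280 to 447 elsewhere. FIBCD1, a marker of CA1, was at 400 CPM in AMB8, 366 in AMB10, 83.9 in AMB3, 76.7 in AMB4, 22.2 in AMB9, 21.8 in AMB7, 16.0 in AMB6 and 9 in AMB5. The 6 CA1 markers together did not set AMB8 (1513 CPM) and AMB10 (1741 CPM) apart from the other libraries (1531 to 1719 CPM). The 8 pyramidal cell markers did, with 4470 and 4178 CPM against 2666 to 3446 CPM.

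Other markers were low in AMB8 and AMB10. FOXP2, a marker of deep cortical layers, was at 67.5 CPM in AMB7, 43.9 in AMB4, 42.1 in AMB9, 38.9 in AMB6, 21.6 in AMB5, 13.1 in AMB3, 3.82 in AMB10 and 1.58 in AMB8. The whole list of subiculum and deep cortex, with 7 markers measured, spanned 613 CPM in AMB7 to 985 CPM in AMB3 and held AMB8 at 624 and AMB10 at 789 CPM. The 9 interneuron markers, all past the filter, summed to 565 CPM in AMB8 and 624 in AMB10, and to 641 to 860 elsewhere. SST, a peptide of one class of interneurons, was at 232 CPM in AMB6, 194 in AMB5, 151 in AMB4, 151 in AMB9, 149 in AMB3, 109 in AMB7, 78.2 in AMB10 and 59.0 in AMB8. CALB2, a calcium-binding protein of another class, went the other way and was highest in AMB8, at 232 CPM.

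Glial and meningeal markers followed other orders. The 6 oligodendrocyte markers summed to 2459 CPM in AMB8, 4363 in AMB10, 3608 in AMB4 and 658 to 1638 elsewhere. The 6 markers of meninges and fibroblasts spanned 186 CPM in AMB5 to 747 CPM in AMB7, and the 6 astrocyte markers 2805 CPM in AMB7 to 6150 CPM in AMB10. The part of all these differences in the receptor values was not tested.

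**Figure D2:**
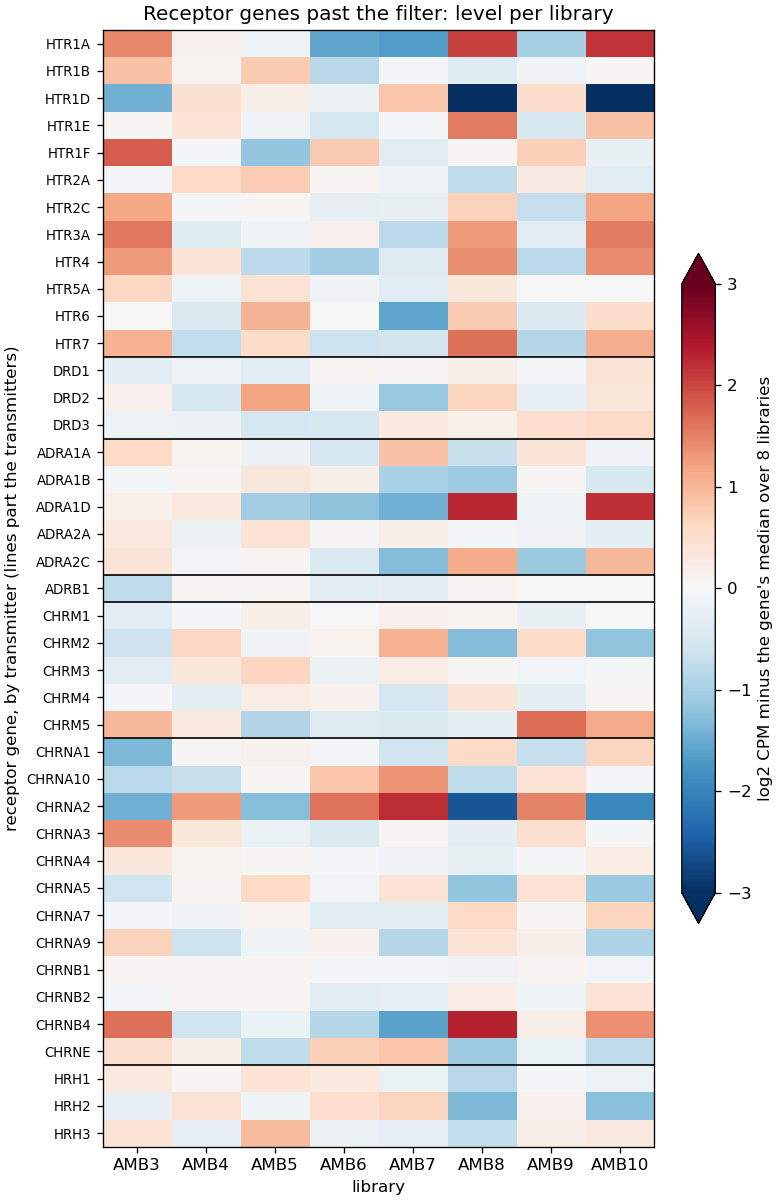
Level of 41 of the 42 receptor genes that passed the filter (rows, by transmitter) in each of 8 libraries (columns), as log2 CPM minus the median of the gene over the libraries. AMB8 and AMB10 hold the deepest colours in both directions, among them HTR1A and ADRA1D (high) and HTR1D and CHRNA2 (low).

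Serotonin receptors had the highest median log2 range of the 7 groups of receptors, 2.40. Of their 16 genes 12 passed the filter. Of these, 11 spanned 1 or more on the log2 scale, against 36.1% of all genes, and 8 spanned 2 or more, against 9%. HTR1A is the Gi-coupled receptor that quiets pyramidal neurons and, on raphe cells, holds back serotonin release (chromosome 5, 58734829 to 58737900). It was at 80.5 CPM in AMB10, 74.2 in AMB8, 48.4 in AMB3, 19.3 in AMB4, 16.4 in AMB5, 8.97 in AMB9, 6.03 in AMB6 and 5.56 in AMB7. The log2 range was 3.85, and AMB10, AMB8 and AMB3 lay above all other libraries. HTR1D, a Gi-coupled receptor of nerve endings (chromosome 1, 21378946 to 21382507), was at 7.82 CPM in AMB7, 6.31 in AMB9, 6.03 in AMB4, 4.93 in AMB5, 3.87 in AMB6, 1.62 in AMB3, 0.508 in AMB8 and 0.433 in AMB10. The 3 libraries highest in HTR1A were the 3 lowest in HTR1D. Its log2 range was 4.07, or 2.24 without AMB8 and AMB10, and the lowest value rested on 31 counts.

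The other Gi-coupled serotonin receptors had orders of their own. HTR1B, another receptor of nerve endings, was at 5.34 CPM in AMB3, 5 in AMB5, 3.15 in AMB4, 2.97 in AMB10, 2.87 in AMB7, 2.71 in AMB9, 2.22 in AMB8 and 1.64 in AMB6, a log2 range of 1.68. HTR1E was at 9.72 CPM in AMB8, 6.11 in AMB10, 4.39 in AMB4, 3.45 in AMB3, 3.19 in AMB7, 3.09 in AMB5, 2.41 in AMB9 and 2.29 in AMB6. Its log2 range of 2.07 was 0.93 without AMB8 and AMB10. HTR1F was at 3.62 CPM in AMB3, 1.77 in AMB6, 1.68 in AMB9, 1.06 in AMB8, 0.999 in AMB4, 0.879 in AMB10, 0.812 in AMB7 and 0.460 in AMB5. Here AMB3 stood alone at the top, and the log2 range of 2.88 was 1.86 without it.

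The Gq-coupled receptors included HTR2A, the target of classical psychedelics on cortical pyramidal neurons, at 37.9 CPM in AMB5, 34.3 in AMB4, 26.9 in AMB9, 23.6 in AMB6, 21.5 in AMB3, 20.2 in AMB7, 17.8 in AMB10 and 13.3 in AMB8. AMB8 and AMB10 were lowest, and the log2 range of 1.51 was 0.90 without them. The ratio of HTR1A to HTR2A counts, chosen after the values were seen, was 5.59 (AMB8), 4.52 (AMB10) and 2.25 (AMB3). It lay between 0.255 in AMB6 and 0.564 in AMB4 in the other libraries. HTR2C, a receptor of neurons that is also abundant in choroid plexus, was at 16.6 CPM in AMB10, 16.3 in AMB3, 11.8 in AMB8, 7.46 in AMB5, 7.10 in AMB4, 6.27 in AMB7, 6.14 in AMB6 and 4.52 in AMB9. AMB10, AMB3 and AMB8 were again the highest. The 6 choroid plexus markers summed to 7.51 CPM in AMB8 and to at most 30.2 CPM (AMB6), and TTR, the defining one, was at 2.47 CPM in AMB4, 2.25 in AMB10, 1.48 in AMB3, 1.25 in AMB6, 0.654 in AMB9, 0.644 in AMB7, 0.119 in AMB8 and 0 in AMB5. TTR was at 2.25 CPM in AMB10 and 1.48 CPM in AMB3, where HTR2C was highest, and at 0.119 CPM in AMB8, where HTR2C was at 11.8 CPM. The part of choroid plexus in the HTR2C values was not tested. HTR2B had 2 counts in each of AMB7, AMB8 and AMB10 and none in the other libraries. Its gene lies within the span of PSMD1, a proteasome gene on the opposite strand with a median of 11879 counts. Whether exons of both genes overlap was not examined.

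The channel subunit HTR3A, which forms the serotonin-gated channel alone or with HTR3B, was at 6.57 CPM in AMB3, 6.37 in AMB10, 5.35 in AMB8, 2.40 in AMB6, 2 in AMB5, 1.76 in AMB9, 1.69 in AMB4 and 1.25 in AMB7. AMB3, AMB10 and AMB8 lay above all other libraries, and the log2 range was 2.37. HTR3B, its partner, did not pass the filter and did not share this order: it had 15 counts in AMB3, 32 in AMB4, 13 in AMB5, 15 in AMB6, 60 in AMB7, 2 in AMB8, 32 in AMB9 and 6 in AMB10. AMB8 and AMB10 had the fewest counts. HTR3D and HTR3E, further subunits of this class, had no count in any library. A limit of 3 counts stands for 0.0419 CPM in AMB10, the deepest library, and 0.0754 CPM in AMB9, the shallowest. The upper ends of the exact 95% Poisson intervals of 0 counts are 0.0515 CPM in AMB10 and 0.0927 CPM in AMB9.

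Among the receptors that raise cyclic AMP through Gs, HTR4 and HTR7 had the same 3 highest libraries as HTR1A, as had 9.73% of all genes. In HTR6 these libraries came next after AMB5. HTR4, an activating receptor of pyramidal neurons, was at 9.21 CPM in AMB10, 9.02 in AMB8, 8.29 in AMB3, 4.45 in AMB4, 2.63 in AMB7, 1.98 in AMB5, 1.96 in AMB9 and 1.68 in AMB6. HTR7 was at 53.0 CPM in AMB8, 35.9 in AMB10, 34.3 in AMB3, 24.4 in AMB5, 11.5 in AMB7, 10.8 in AMB6, 10.1 in AMB4 and 9.25 in AMB9. Both had AMB8, AMB10 and AMB3 as the highest libraries, with log2 ranges of 2.43 (HTR4) and 2.51 (HTR7). HTR6 was at 14.6 CPM in AMB5, 12.3 in AMB8, 10.4 in AMB10, 7.26 in AMB3, 7.06 in AMB6, 5.40 in AMB9, 5.29 in AMB4 and 2.38 in AMB7, with AMB5 on top, and its log2 range of 2.60 was 1.45 without AMB7, the lowest. HTR5A, a Gi-coupled receptor of neurons, varied least among the 12 serotonin receptors past the filter, at 22.7 CPM in AMB3, 19.7 in AMB5, 18.3 in AMB8, 14.8 in AMB9, 14.5 in AMB10, 13.6 in AMB6, 13.2 in AMB4 and 11.5 in AMB7.

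**Figure D3:**
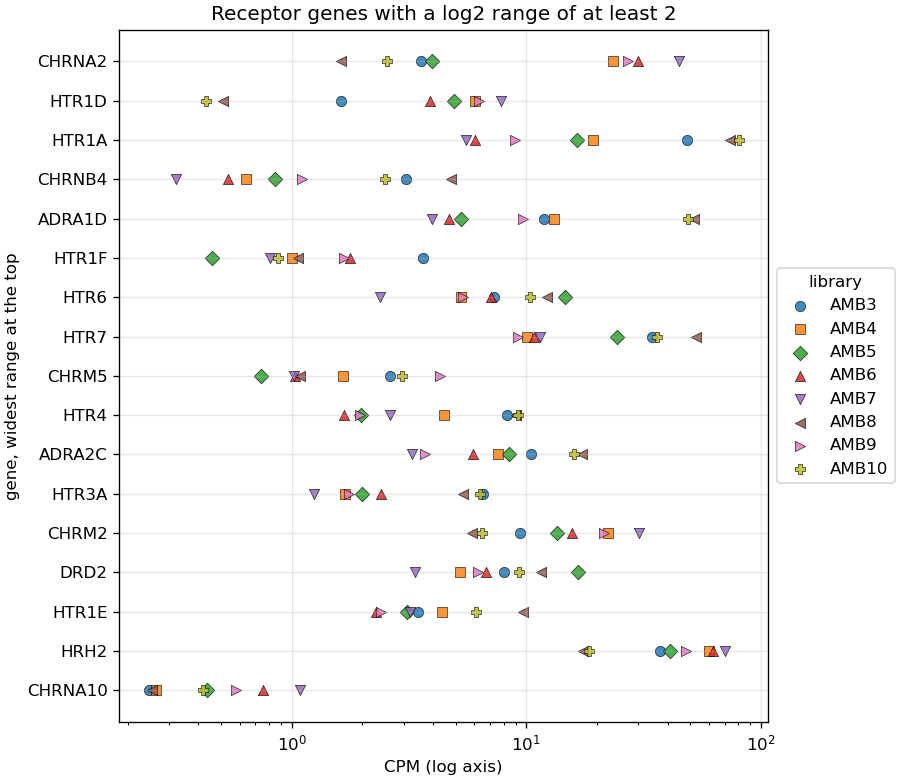
CPM (log axis) in each of 8 libraries (symbols) for the 17 receptor genes with a log2 range of at least 2, ordered by range with the widest at the top. CHRNA2 runs from 1.63 CPM in AMB8 to 44.7 CPM in AMB7, while HTR1A runs from 5.56 CPM in AMB7 to 80.5 CPM in AMB10.

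The dopamine receptors had no common order of libraries. DRD1, a receptor that raises cyclic AMP, was at 33.0 CPM in AMB10, 28.7 in AMB8, 26.4 in AMB6, 25.8 in AMB7, 24.8 in AMB9, 22.8 in AMB4, 20.5 in AMB3 and 20 in AMB5. AMB10 and AMB8 were highest, and the log2 range of 0.72 was 0.40 without them. DRD5, the other cyclic AMP-raising dopamine receptor (chromosome 3, 176811396 to 176813881), failed the filter through AMB8 alone: it had 143 counts in AMB3, 260 in AMB4, 410 in AMB5, 254 in AMB6, 143 in AMB7, 6 in AMB8, 134 in AMB9 and 56 in AMB10. In CPM it was at 9.44 in AMB5 (95% Poisson interval 8.55 to 10.4), and at 0.782 in AMB10 and 0.0896 in AMB8 (0.0329 to 0.195). AMB8 and AMB10 were thus lowest in DRD5 and highest in DRD1. The log2 range of DRD5, 6.24, was 3.54 without AMB8 and 2.22 without AMB8 and AMB10. The row shares 380 bases on the same strand with a pseudogene, LOC116274240, which had a median of 2 counts. The ratio of DRD1 to DRD5 counts, chosen after the values were seen, was 320 in AMB8, where it rests on 6 counts of DRD5, and 42.2 in AMB10. Elsewhere it lay between 2.11 in AMB5 and 12.9 in AMB7.

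Among the Gi-coupled dopamine receptors, DRD2, the target of antipsychotic drugs, was at 16.6 CPM in AMB5, 11.6 in AMB8, 9.31 in AMB10, 8.02 in AMB3, 6.74 in AMB6, 6.21 in AMB9, 5.23 in AMB4 and 3.34 in AMB7. AMB5 was highest and AMB7 lowest, a log2 range of 2.30. DRD3 was at 2.14 CPM in AMB10, 2.04 in AMB9, 1.76 in AMB7, 1.60 in AMB8, 1.30 in AMB3, 1.28 in AMB4, 1.03 in AMB6 and 1.01 in AMB5, and its log2 range of 1.05 was 0.98 without AMB10. DRD4 did not pass the filter: it had 7 counts in AMB3, 8 in AMB4, 14 in AMB5, 15 in AMB6, 13 in AMB7, 2 in AMB8, 13 in AMB9 and 6 in AMB10. The 7 striatal markers, listed because the striatum is rich in DRD1 and DRD2, summed to between 155 CPM in AMB8 and 254 CPM in AMB9. PPP1R1B, a phosphoprotein of striatal neurons, was at 37.7 CPM in AMB7, 32.0 in AMB3, 30.6 in AMB10, 29.4 in AMB8, 27.6 in AMB9, 27.1 in AMB6, 25.9 in AMB4 and 25.8 in AMB5. The part of striatal tissue in the DRD1 and DRD2 values was not tested.

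Alpha-adrenergic receptors answer to noradrenaline and adrenaline. Among the Gq-coupled ones, ADRA1D (chromosome 16, 54226431 to 54255396) was at 51.8 CPM in AMB8, 48.9 in AMB10, 13.1 in AMB4, 11.9 in AMB3, 9.70 in AMB9, 5.25 in AMB5, 4.68 in AMB6 and 3.95 in AMB7. AMB8 and AMB10 stood far above the rest, and the log2 range of 3.70 was 1.72 without them. ADRA1A had another order, at 75.1 CPM in AMB7, 61.8 in AMB3, 53.3 in AMB9, 43.7 in AMB4, 38.3 in AMB10, 36.4 in AMB5, 28.8 in AMB6 and 25.9 in AMB8, with AMB8 lowest and a log2 range of 1.54. ADRA1B was at 6.47 CPM in AMB5, 5.75 in AMB6, 5.29 in AMB4, 5.23 in AMB9, 5.02 in AMB3, 3.66 in AMB10, 2.63 in AMB7 and 2.42 in AMB8, a log2 range of 1.41, and AMB8 was lowest here too.

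The Gi-coupled alpha receptors act on nerve endings to restrain release as well as on other neurons. ADRA2C was at 17.3 CPM in AMB8, 15.9 in AMB10, 10.5 in AMB3, 8.43 in AMB5, 7.59 in AMB4, 5.92 in AMB6, 3.72 in AMB9 and 3.27 in AMB7, with AMB8 and AMB10 on top and a log2 range of 2.39. ADRA2A was steadier, at 23.6 CPM in AMB5, 21.6 in AMB3, 19.9 in AMB7, 18.2 in AMB6, 17.3 in AMB8, 16.5 in AMB9, 15.6 in AMB4 and 14.4 in AMB10. ADRA2B did not pass the filter: it had 27 counts in AMB3, 50 in AMB4, 6 in AMB5, 43 in AMB6, 34 in AMB7, 23 in AMB8, 26 in AMB9 and 31 in AMB10. AMB5 had the fewest counts, at 0.138 CPM (95% Poisson interval 0.0507 to 0.301), and the other libraries lay between 0.343 and 0.792 CPM.

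Beta-adrenergic receptors raise cyclic AMP. ADRB1, the main one of the heart, was at 12 CPM in AMB4, 11.9 in AMB8, 11.6 in AMB5, 11.4 in AMB10, 11.1 in AMB9, 9.29 in AMB7, 8.97 in AMB6 and 6.65 in AMB3, and its log2 range of 0.85 was 0.42 without AMB3. ADRB3, the receptor of fat cells, had no count in any library. Its row shares its whole span on the same strand with an uncharacterized gene, LOC100998522, whose median was also 0.

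Muscarinic receptors are the acetylcholine receptors that act through G proteins. CHRM1, coupled to Gq and the classical receptor of hippocampal pyramidal neurons, had one of the smallest ranges of the 42 genes, at 182 CPM in AMB5, 176 in AMB7, 174 in AMB8, 163 in AMB6, 161 in AMB10, 157 in AMB4, 139 in AMB9 and 127 in AMB3. The log2 range was 0.52. CHRM3, also coupled to Gq, was at 124 CPM in AMB5, 99.4 in AMB4, 92.5 in AMB7, 80.7 in AMB8, 77.4 in AMB10, 74.1 in AMB9, 70.2 in AMB6 and 62.8 in AMB3, and its log2 range of 0.99 was 0.66 without AMB5. CHRM4, coupled to Gi, lay between 16.9 CPM in AMB7 and 31.0 in AMB8, a log2 range of 0.87.

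The remaining muscarinic receptors spread more. CHRM2, the Gi-coupled receptor that brakes acetylcholine release (chromosome 4, 21560451 to 21716435), was at 30.1 CPM in AMB7, 22.4 in AMB4, 21.4 in AMB9, 15.7 in AMB6, 13.5 in AMB5, 9.45 in AMB3, 6.45 in AMB10 and 5.88 in AMB8. AMB8 and AMB10 were lowest, AMB3 came next, and the log2 range was 2.35. CHRM5, coupled to Gq, was at 4.30 CPM in AMB9, 2.96 in AMB10, 2.63 in AMB3, 1.66 in AMB4, 1.09 in AMB8, 1.03 in AMB6, 1.02 in AMB7 and 0.737 in AMB5, a log2 range of 2.49, with AMB9 highest and AMB5 lowest.

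Nicotinic receptors are acetylcholine-gated channels. Of their 15 genes 12 passed the filter. Of these, 9 spanned 1 or more on the log2 scale, against 36.1% of all genes, and 3 spanned 2 or more, against 9%. CHRNA4 and CHRNB2, the subunits of the main high-affinity receptor of the brain, had log2 ranges of 0.53 and 0.74, and that of CHRNB2 was 0.39 without AMB8 and AMB10. CHRNA4 was at 52.5 CPM in AMB3, 49.0 in AMB10, 45.4 in AMB4, 43.0 in AMB5, 41.4 in AMB9, 41.2 in AMB6, 39.1 in AMB7 and 36.3 in AMB8. CHRNB2 was at 90.6 CPM in AMB10, 79.9 in AMB8, 70.7 in AMB4, 70.6 in AMB5, 66.0 in AMB3, 62.3 in AMB9, 58.0 in AMB7 and 54.1 in AMB6. CHRNA7, which forms channels of its own and passes calcium, was at 26.5 CPM in AMB10, 25.1 in AMB8, 17.7 in AMB5, 16.9 in AMB9, 16.2 in AMB3, 15.4 in AMB4, 13.2 in AMB6 and 13.0 in AMB7, with AMB10 and AMB8 above the other libraries. Its log2 range of 1.02 was 0.95 without AMB10 and 0.44 without AMB8 and AMB10.

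CHRNA2 had the widest range of all 42 genes (chromosome 8, 25519554 to 25539965). It was at 44.7 CPM in AMB7, 30.0 in AMB6, 27.2 in AMB9, 23.4 in AMB4, 3.98 in AMB5, 3.57 in AMB3, 2.54 in AMB10 and 1.63 in AMB8. AMB7 was highest and AMB8 lowest, a log2 range of 4.75. In rodents this subunit marks interneurons of the stratum oriens that make somatostatin. SST, the gene of somatostatin, was lowest in AMB8 (59.0 CPM) and AMB10 (78.2 CPM), as was CHRNA2. SST was highest in AMB6 (232 CPM), the second highest in CHRNA2, and at 109 CPM in AMB7 and 194 CPM in AMB5. Its part in the CHRNA2 values was not tested. CHRNA6, a subunit known from dopamine neurons, did not pass the filter: it had 25 counts in AMB3, 334 in AMB4, 303 in AMB5, 202 in AMB6, 78 in AMB7, 5 in AMB8, 88 in AMB9 and 47 in AMB10. AMB5 and AMB4 were highest, at 6.98 and 5.22 CPM, and AMB8 lowest, at 0.0747 CPM (95% Poisson interval 0.0242 to 0.174).

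CHRNA3, CHRNA5 and CHRNB4 lie side by side on chromosome 7 (110440458 to 110517024) and can share one channel, that of autonomic ganglia and of the habenula. Their levels did not follow one order. CHRNB4 was at 4.79 CPM in AMB8, 3.08 in AMB3, 2.51 in AMB10, 1.11 in AMB9, 0.852 in AMB5, 0.640 in AMB4, 0.534 in AMB6 and 0.322 in AMB7, with a log2 range of 3.76. CHRNA3 was at 19.1 CPM in AMB3, 9.88 in AMB9, 8.88 in AMB4, 7.39 in AMB7, 6.85 in AMB10, 6.15 in AMB5, 5.94 in AMB8 and 5.27 in AMB6, and its log2 range of 1.85 was 0.90 without AMB3. CHRNA5 was at 3.68 CPM in AMB5, 3.29 in AMB9, 3.22 in AMB7, 2.55 in AMB4, 2.30 in AMB6, 1.60 in AMB3, 1.12 in AMB10 and 1.09 in AMB8, with AMB8 and AMB10 lowest, a log2 range of 1.72, while AMB8 was highest for CHRNB4.

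Subunits known from skeletal muscle were partly present. CHRNA1 was at 11.0 CPM in AMB10, 10.5 in AMB8, 7.67 in AMB5, 7.15 in AMB4, 6.89 in AMB6, 4.65 in AMB7, 4.35 in AMB9 and 2.78 in AMB3, a log2 range of 1.97. CHRNB1 had the smallest log2 range of the 42 genes, 0.18, between 4.99 and 5.66 CPM. CHRNE was at 5.77 CPM in AMB7, 5.31 in AMB6, 4.53 in AMB3, 3.76 in AMB4, 2.82 in AMB9, 1.93 in AMB5, 1.91 in AMB10 and 1.54 in AMB8, a log2 range of 1.88. Its row overlaps by 6 bases with MINK1, a kinase gene on the opposite strand with a median of 13266 counts, against 160 for CHRNE. CHRND had no count in any library, and CHRNG had 2 in AMB7 and 1 in AMB10. RAPSN, the protein that clusters receptors at the muscle synapse, had at most 10 counts. CHRNA9 and CHRNA10, the subunits of the receptor of cochlear hair cells, were low. CHRNA9 was at 0.984 CPM in AMB3, 0.806 in AMB8, 0.679 in AMB9, 0.663 in AMB6, 0.553 in AMB5, 0.390 in AMB4, 0.336 in AMB7 and 0.321 in AMB10, from 23 to 54 counts and with a log2 range of 1.52. CHRNA10 was at 0.246 CPM in AMB3, 0.265 in AMB4, 0.437 in AMB5, 0.756 in AMB6, 1.09 in AMB7, 0.254 in AMB8, 0.578 in AMB9 and 0.419 in AMB10, from 10 to 78 counts, with AMB7 highest.

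All 3 histamine receptors past the filter were lowest in AMB8, as were 12 of the 42 receptor genes and 12.3% of all genes. HRH2, which raises cyclic AMP (chromosome 5, 168316614 to 168370587), was at 70.3 CPM in AMB7, 62.6 in AMB6, 59.9 in AMB4, 48.1 in AMB9, 40.8 in AMB5, 37.2 in AMB3, 18.6 in AMB10 and 17.4 in AMB8. The log2 range of 2.01 was 0.92 without AMB8 and AMB10. HRH1, coupled to Gq and the target of sedating antihistamines, was at 17.3 CPM in AMB5, 16.1 in AMB3, 15.9 in AMB6, 13.5 in AMB4, 12.6 in AMB9, 11.8 in AMB10, 11.4 in AMB7 and 7.36 in AMB8, and its log2 range of 1.23 was 0.60 without AMB8. HRH3, the Gi-coupled receptor of histamine nerve endings, was at 16.3 CPM in AMB5, 11.1 in AMB3, 10.3 in AMB10, 9.53 in AMB9, 7.41 in AMB6, 7.12 in AMB7, 7.06 in AMB4 and 5.03 in AMB8, and its log2 range of 1.69 was 1.14 without AMB5. HRH4, a receptor of blood and immune cells, did not pass the filter: it had 20 counts in AMB3, 46 in AMB4, 25 in AMB5, 26 in AMB6, 61 in AMB7, 34 in AMB8, 14 in AMB9 and 0 in AMB10. AMB10 had none, for which the limit of 3 counts is 0.0419 CPM and the upper end of the exact 95% Poisson interval 0.0515 CPM. The gene shares 20077 bases on the same strand with IMPACT, which had a median of 1812 counts, so its counts are uncertain.

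**Figure D4:**
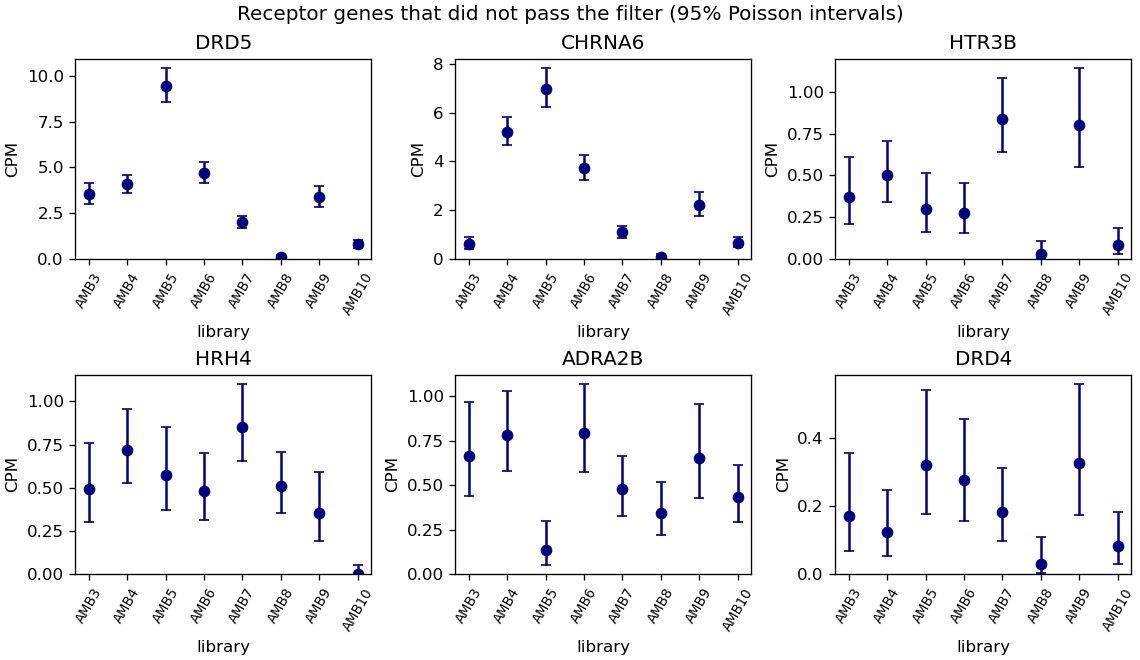
CPM in each of 8 libraries for the 6 receptor genes that did not pass the filter but had at least 10 counts in some library, with 95% Poisson intervals as bars. DRD5, CHRNA6, HTR3B and DRD4 were lowest in AMB8, HRH4 in AMB10 and ADRA2B in AMB5.

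Genes that make, carry and break down the transmitters were read beside their receptors. Their synthesis sits mostly in cells outside the hippocampus. SLC6A4, the serotonin transporter, had at most 12 counts and SLC6A3, the dopamine transporter, at most 8. TPH2, the serotonin-making enzyme of neurons, was at 1.52 CPM in AMB10, 1.27 in AMB8, 0.788 in AMB3, 0.350 in AMB7, 0.258 in AMB6, 0.230 in AMB5, 0.201 in AMB9 and 0.187 in AMB4, from 8 to 109 counts. Its 3 highest libraries were those of HTR1A, as in 9.73% of all genes. MAOB, a monoamine oxidase of astrocytes, was at 148 CPM in AMB10, 136 in AMB3, 133 in AMB8, 116 in AMB5, 78.1 in AMB4, 72.8 in AMB6, 70.0 in AMB9 and 43.3 in AMB7, and its log2 range of 1.77 was 1.08 without AMB7. DDC, the decarboxylase shared by the serotonin and dopamine pathways, was at 1.70 CPM in AMB3, 0.836 in AMB8, 0.609 in AMB4, 0.576 in AMB5, 0.391 in AMB10, 0.327 in AMB9, 0.276 in AMB6 and 0.182 in AMB7. Of the catecholamine list 4 of 5 genes past the filter had a log2 range of at least 1, against 36.1% of all genes. They were GCH1 (1.69, or 1.01 without AMB7), PNMT (1.65), SLC22A3 (1.43) and SLC29A4 (1.12, or 0.91 without AMB10).

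TH, the first enzyme of dopamine and noradrenaline synthesis, and SLC6A2, the noradrenaline transporter, failed the filter through AMB8 and were next lowest in AMB10. TH was at 2.25 CPM in AMB6, 1.84 in AMB5, 1.25 in AMB4, 1.23 in AMB3, 0.855 in AMB9, 0.672 in AMB7, 0.335 in AMB10 and 0.119 in AMB8, from 8 to 122 counts. SLC6A2 was at 1.80 CPM in AMB5, 1.69 in AMB4, 1.41 in AMB9, 1.33 in AMB3, 1.33 in AMB6, 1.04 in AMB7, 0.349 in AMB10 and 0.0747 in AMB8, from 5 to 108 counts. SLC18A2, the vesicular transporter of monoamines, also failed the filter but went the other way. Its level was 3.57 CPM in AMB3, 2.58 in AMB10, 2.28 in AMB8 and 0.161 to 1.23 elsewhere, from 7 to 185 counts. In the acetylcholine list, ACHE, which splits acetylcholine, lay between 33.9 CPM in AMB8 and 58.3 in AMB5. The wider genes past the filter were PRIMA1, its membrane anchor (log2 range 2.65), BCHE (1.83, or 1.15 without AMB7) and COLQ (1.29). The 5 cholinergic neuron markers summed to between 0.239 CPM in AMB8 and 3.50 CPM in AMB6, and none passed the filter. Among these, CHAT, the enzyme that makes acetylcholine, had at most 42 counts, and ISL1 and GBX1 had under 10 in every library. SLC18A3, the vesicular transporter of acetylcholine, was at 2.62 CPM in AMB6, 2.01 in AMB9 and 1.58 in AMB4. In the other libraries SLC18A3 lay between 0 CPM in AMB8 and 0.443 CPM in AMB3. For histamine, AOC1, a diamine oxidase, had no count in any library.

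Genes downstream of the receptors had lower median ranges than the receptors, between 0.46 and 0.99 in 6 lists, against 0.77 for all genes. None of 8 G protein alpha subunits and none of 7 receptor kinases and arrestins spanned 1 on the log2 scale, and their median ranges were 0.58 and 0.46. GNAO1, the Go subunit, lay between 655 and 865 CPM, and its log2 range of 0.40 was 0.16 without AMB5. ARRB1, an arrestin, lay between 350 and 437 CPM. Of 15 genes of adenylyl cyclases and protein kinase A 5 reached 1, near the share of 36.1% among all genes. They included ADCY1, a calcium-stimulated cyclase, at 1283 CPM in AMB7, 1225 in AMB4, 1152 in AMB9, 904 in AMB5, 885 in AMB6, 668 in AMB3, 453 in AMB10 and 306 in AMB8. ADCY7 (1.61) and ADCY2 (1.17) followed. Of 10 genes of the phospholipase C list 4 did, again near that share, with PRKCA (1.86), PLCB4 (1.55) and PRKCB (1.53, or 0.98 without AMB3) ahead.

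A few signalling partners spread as far as the receptors. KCNJ5, a subunit of the potassium channels that Gi-coupled receptors open, was at 7.44 CPM in AMB5, 6.21 in AMB9, 5.27 in AMB6, 4.31 in AMB7, 3.64 in AMB4, 1.08 in AMB3, 0.977 in AMB10 and 0.478 in AMB8. The other 3 channels of that list had ranges under 1, among them KCNJ9, between 179 and 265 CPM. Of 11 RGS proteins, which shorten G protein signals, RGS14, a protein of CA2 neurons, had the widest range. It was at 167 CPM in AMB10, 130 in AMB8, 55.2 in AMB3, 42.4 in AMB4, 28.3 in AMB5, 21.1 in AMB9, 17.0 in AMB6 and 4.98 in AMB7, and the log2 range of 5.06 was 3.29 without AMB7. RGS6 was at 85.3 CPM in AMB7, 45.4 in AMB4, 45.1 in AMB9, 44.3 in AMB6, 37.2 in AMB5, 8.47 in AMB3, 5.82 in AMB10 and 3.69 in AMB8. RGS4 was at 262 CPM in AMB5, 197 in AMB4, 154 in AMB9, 150 in AMB6, 147 in AMB7, 125 in AMB3, 32.7 in AMB10 and 15.5 in AMB8. RGS14 had AMB10 and AMB8 highest and RGS6 and RGS4 had them lowest.

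Of 7 genes that assemble or tune nicotinic receptors and passed the filter, 2 reached a range of 1, against 36.1% of all genes. LYPD1, a membrane-bound brake on nicotinic receptors, was at 175 CPM in AMB8, 158 in AMB3, 149 in AMB10, 42.0 in AMB6, 37.0 in AMB4, 31.9 in AMB9, 30.8 in AMB5 and 17.9 in AMB7. LYNX1, a similar brake, was at 238 CPM in AMB10, 192 in AMB8, 153 in AMB3, 120 in AMB5, 97.0 in AMB4, 86.2 in AMB7, 75.2 in AMB9 and 68.7 in AMB6. Both were highest in AMB3, AMB8 and AMB10. LY6H, of the same protein family, lay between 128 and 246 CPM. Of 6 receptor-binding proteins, S100A10, which carries the receptor HTR1B to the membrane, was at 47.0 CPM in AMB3 and between 7.85 and 15.6 CPM elsewhere. Its log2 range of 2.58 was 0.99 without AMB3. NSF, a vesicle fusion protein, had a log2 range of 1.11, or 0.98 without AMB10.

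**Figure D5:**
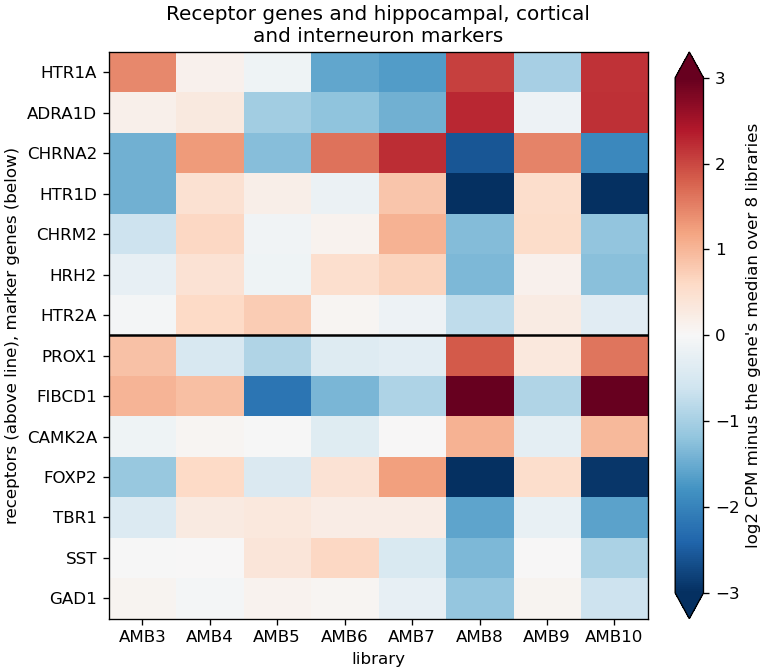
Level of 7 receptor genes (above the line) and of 7 marker genes of hippocampal fields, projection neurons and interneurons (below it) in each of 8 libraries, as log2 CPM minus the median of the gene over the libraries. The genes were picked after their values were seen. AMB8 and AMB10 are high in HTR1A, ADRA1D, PROX1, FIBCD1 and CAMK2A and low in CHRNA2, HTR1D, FOXP2 and TBR1.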

How the data were processed

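RNA-seq of 8 fetal hippocampus libraries was read from one deposited table. Per the labels' protocols, strand-specific libraries were made from 25 ng of total RNA. Per the file headers the raw columns are counts for RefSeq genes; many are fractional, so these deposited values were taken as estimated counts. The deposited normalized columns are log2 values whose median over AMB3, AMB8 and AMB10 was 0 (tolerance 1e-05) in 100.0% of genes. They served as an alternative only, and the libraries were not grouped by this. DESeq is named, per the submitters' processing notes, which state no version. No aligner, counter, strand setting or build is named in the sources used here. All 37053 gene identifiers matched the RefSeq table of Panubis1.0, and 99.98% of start positions were equal, so coordinates are on that assembly.

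Estimated counts were rounded, and genes kept by filterByExpr of edgeR 4.0.16 (minimum count 10, no groups). The filter asks for the minimum in all 8 libraries, so genes near 0 in any library fail it. Library sizes were scaled by TMM. CPM and log2 CPM (prior count 2) were computed with numpy 2.4.6, and exact 95% Poisson intervals with scipy 1.17.1. The range computation was tested on simulated Poisson counts, with known ranges set only in genes of higher counts. That test does not cover genes of low counts or spread beyond counting error. Size factors of DESeq2 1.42.0 and other settings were tried as alternatives. Gene levels were not divided by transcript length, so they are compared between libraries and not between genes.

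The members and gene lists were chosen with earlier results of these data known. Genes named with a value in every library are those past the filter with a log2 range of at least 1 and the 2 of highest median CPM for each transmitter. Of each further list, the 1 of highest median CPM and up to 3 of the widest range are named. Genes outside this rule, such as those with low counts, are named to account for every member or because they were chosen after their values were seen. Some listed genes and members are not reported here. Listed genes with no row under their symbol are not analysed here.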

Additional observations from a re-analysis of the deposited data

How the results depend on the processing

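The numbers of receptor genes with a log2 range of at least 1 (31) and at least 2 (17) and their median range were within 1.5 times, or within 1 SD, of the values reported with DESeq2 size factors, total counts, a prior count of 0.5, unrounded counts and no filter. The log2 ranges of the 42 genes moved by less than 1 SD of the gene over the libraries with the first 4 of these and with the deposited log2 columns. The exceptions came from leaving out libraries. Leaving out each library in turn gave 29 to 31 genes of range at least 1, 11 to 17 of at least 2 (11 without AMB7) and a median range of 1.63 to 1.79. For the 2 highest libraries being AMB8 and AMB10 it gave 10 to 13, and for the 2 lowest 8 to 10 (7 with total counts and 11 with no filter). For the 3 highest with AMB3 it gave 7 to 9, and for the 3 lowest 5 to 7. Leaving out AMB8 and AMB10 together was an alternative chosen after seeing the data. It gave 25 genes of range at least 1, 11 of at least 2 and a median range of 1.42. Fewer libraries can only narrow a range, and the shares of all genes with libraries left out are not given here. The counts of the 3 highest and lowest libraries and the distance between Poisson bounds were also chosen after seeing the data. A minimum count of 5 let 44 receptor genes pass and one of 20 let 39 pass. Depth limits the genes with the fewest counts, such as DRD4, with 2 to 15 counts per library. No paired analysis was possible because the labels put no library in a group.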

Other observations

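Some receptor genes, picked after their values were seen, left a wide gap between libraries. The share of all genes with such a gap is not given here, so this does not set them apart. CHRNA2, a nicotinic subunit, had no value between 23.4 CPM in AMB4 and 3.98 CPM in AMB5: AMB4, AMB6, AMB7 and AMB9 lay at 23.4 to 44.7 CPM, and AMB3, AMB5, AMB8 and AMB10 at 1.63 to 3.98 CPM. ADRA1D, an alpha-adrenergic receptor, had no value between 48.9 CPM in AMB10 and 13.1 CPM in AMB4, with AMB8 at 51.8 CPM. HTR1A, a serotonin receptor, had none between 48.4 CPM in AMB3 and 19.3 CPM in AMB4. The labels put none of these libraries in a group.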
